A study of Mus musculus with 11 samples.

Results

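The interferon regulatory factors are transcription factors that share a DNA-binding domain and act downstream of viral sensors and of the interferon receptors. The 8 genes described here (Irf1, Irf2, Irf3, Irf4, Irf5, Irf7, Irf8 and Irf9) were chosen by name as a gene family, were matched by symbol to their Ensembl identifiers, and were all found among the 50686 genes of the count tables. All 8 passed edgeR's filter on low counts in both experiments.

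RNA-seq libraries came from gliomas that form when GL261, a mouse glioma line, is injected into the brain, here in C57BL/6 mice aged 6 weeks. TAM-MG, the tumour-associated microglia, were sorted as live CD11b+ CD45low cells, with 3 libraries of Cx3cr1-Rheb1 Δ/Δ (replicates 54, 63 and 65) and 2 of Rheb1 fl/fl (replicates 74 and 78). Bulk tumours gave 3 libraries of Cx3cr1-Rheb1 Δ/Δ (replicates 26, 36 and 37) and 3 of Rheb1 fl/fl (replicates 35, 38 and 110). All mice carried the floxed Rheb1 alleles and received tamoxifen 3 weeks before the injection, and tissue was collected 3 weeks after it, per the labels, which call the genotypes Rheb1 KO and WT. In the Δ/Δ mice a Cre recombinase that tamoxifen activates, driven from the Cx3cr1 locus, deletes Rheb1 in microglia and in other cells that express Cx3cr1, among them some infiltrating macrophages, while the fl/fl mice lack Cre. Rheb1, annotated as Rheb, encodes the GTPase that switches on mTOR complex 1. RNA of bulk tumours came from formalin-fixed, paraffin-embedded tissue, so that tissue, RNA source and experiment make the same split of the libraries and cannot be told apart.

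Each member has a place in the interferon circuit. Irf3 and Irf7 are latent in the cytoplasm and are phosphorylated after viral sensing to switch on the interferon genes, while Irf9 is the DNA-binding part of the ISGF3 complex that drives interferon-stimulated genes. Irf1 is induced by interferon-γ and activates genes of antigen presentation and cell-autonomous defence, and Irf2 binds the same elements, often as a repressor. Irf8 and Irf4 pair with the myeloid factor PU.1, Irf8 is needed for microglial identity, and Irf5 acts downstream of Toll-like receptors on inflammatory cytokine genes.

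Total counts were 22132236 to 25945816 in Cx3cr1-Rheb1 Δ/Δ and 20765767 to 29947977 in Rheb1 fl/fl TAM-MG, and 14940787 to 19798998 in Cx3cr1-Rheb1 Δ/Δ and 15606224 to 21991348 in Rheb1 fl/fl tumours. Rheb, the targeted gene, had a log2 fold change of -0.85 (SE 0.34) in TAM-MG and of -0.88 (SE 0.32) in bulk tumours, with groups that did not overlap in either experiment. Counts are per gene and not limited to the deleted exon. Bulk replicate 35 of Rheb1 fl/fl stood apart, with 10643 counts of Xist and 0 of Ddx3y, while every other bulk library had Ddx3y counts and at most 5 of Xist. In TAM-MG against bulk, all 12 homeostatic microglial markers and all 20 shared myeloid markers were called higher (background 20.5% of genes called higher), and all 8 neuronal markers were called lower (background 32.4% of genes called lower). Levels are given as CPM, counts scaled by edgeR's TMM factors of the same experiment, and fold changes as log2 of Δ/Δ over fl/fl from the quasi-likelihood fit of edgeR. Calls asked for a change of 1.5-fold or more together with a p, adjusted by Benjamini-Hochberg over all genes tested, under 0.05.

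The sequences before the starts of these genes were searched for the elements through which interferons act. Those of Irf1, Irf2 and Irf8 are shown because only their windows held a match to any of the 3 motifs searched. All 8 members matched RefSeq (GRCm38.p6), with 11 windows of 250 bases before to 50 after an annotated start. The motif GAS (TTCNNNGAA, which reads the same on both strands), the element of genes that respond to interferon-γ, was in 3 of the 11 windows, against 8.3% of all 32851 windows. The ISRE core (GAAA, any 2 bases, GAAA, on either strand) was in 1 of 11, against 3.44% of all windows, and the EICE core of PU.1 with Irf8 or Irf4 (GGAA, any 2 bases, GAAA, on either strand) in 1 of 11, against 2.72%, and these were matches that overlap each other. Each stretch of 70 bases below is upstream of the start and on the plus strand, and capitals mark the matches: a single GAS in Irf1 (chr11:53769893-53769962), the overlapping EICE and ISRE cores followed by a GAS in Irf2 (chr8:46739495-46739564), and a pair of GAS matches in Irf8 (chr8:120736165-120736234).
Irf1: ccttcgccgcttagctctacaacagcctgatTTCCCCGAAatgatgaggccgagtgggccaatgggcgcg
Irf2: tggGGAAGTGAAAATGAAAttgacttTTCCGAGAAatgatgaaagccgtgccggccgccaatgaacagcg
Irf8: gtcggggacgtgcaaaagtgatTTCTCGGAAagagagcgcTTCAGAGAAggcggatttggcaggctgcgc
The GAS of Irf1 spans bases -90 to -82 from its start, those of Irf8 bases -171 to -163 and -153 to -145, and that of Irf2 bases -224 to -216. A match is a description of these letters, not a site.

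In bulk tumours, 7 of the 8 members had negative fold changes and the median over the 8 was -1.64, beside 0.00 over all 17028 genes tested, of which 49.8% were negative. None of the 8 was called by the quasi-likelihood test, in which the share of genes called lower was 0% and the smallest adjusted p of any gene was 0.0805. At an unadjusted p under 0.05, 5 members were lower (Irf1, Irf2, Irf5, Irf8 and Irf9), against 5.19% of all genes tested. The likelihood ratio test of edgeR, the test the study used, called 4 members lower (Irf1, Irf2, Irf8 and Irf9), against 1.53% of all genes. DESeq2 called the same 4, among 334 genes called lower of the 17028 tested. With no filter on low counts, or with at least 10 counts asked of every library, the quasi-likelihood test itself called 3 members (Irf1, Irf2 and Irf8). They were among 85 genes called lower with no filter and 54 with the stricter filter, each out of another set of genes tested. For 6 members the tumours of the genotypes did not overlap, all lower in Cx3cr1-Rheb1 Δ/Δ, against 9.23% of all genes.

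**Figure D1:**
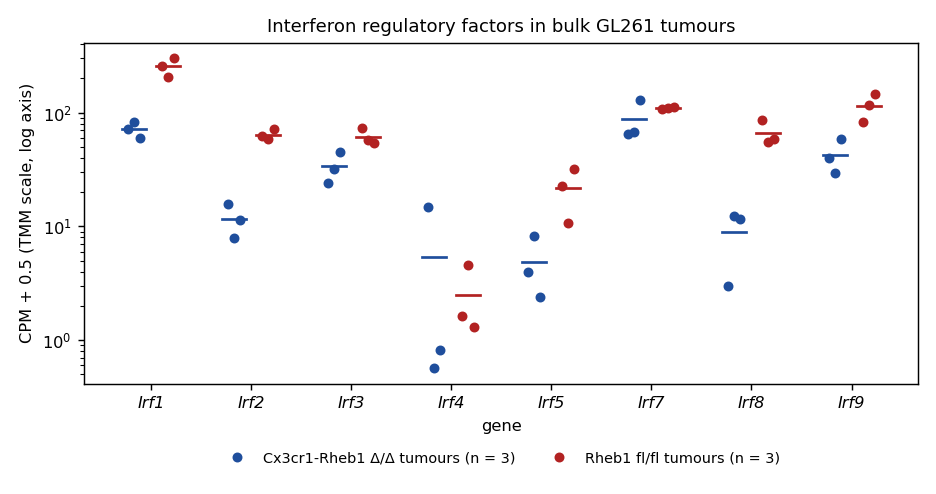
Level of the 8 interferon regulatory factors in each bulk GL261 tumour, as CPM + 0.5 on a log axis, with 3 Cx3cr1-Rheb1 Δ/Δ tumours left of 3 Rheb1 fl/fl tumours for each gene and the mean as a line. Irf1, Irf2, Irf3, Irf5, Irf8 and Irf9 were lower in every Cx3cr1-Rheb1 Δ/Δ tumour than in any Rheb1 fl/fl tumour, while Irf4 and Irf7 overlapped.

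Irf8 (ENSMUSG00000041515; chromosome 8, 120736358 to 120756694, plus strand, GRCm38) had the largest fold change of the 8 in bulk tumours. It stood at 2.47, 11.8 and 11.2 CPM in Cx3cr1-Rheb1 Δ/Δ tumours (replicates 26, 36 and 37), against 85.8, 54.4 and 58.7 CPM in Rheb1 fl/fl tumours (replicates 35, 38 and 110). All 3 Δ/Δ tumours lay far below the lowest fl/fl tumour, and replicate 26 was lower than the other two. The log2 fold change was -2.97 (SE 0.63), with an adjusted p of 0.154 in the quasi-likelihood test of edgeR and of 0.00143 in its likelihood ratio test.

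Irf1 (ENSMUSG00000018899; chromosome 11, 53770014 to 53778374, plus strand) had 71.7, 82.1 and 59.5 CPM in the Cx3cr1-Rheb1 Δ/Δ tumours, against 258, 206 and 301 CPM in the Rheb1 fl/fl tumours. The groups were far apart relative to the spread within each. Its log2 fold change of -1.84 had the smallest standard error of the family (0.30) and an adjusted p of 0.115 in the quasi-likelihood test of edgeR, against 0.000122 in the likelihood ratio test.

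Irf2 (ENSMUSG00000031627; chromosome 8, 46739732 to 46847458, plus strand), the counterpart of Irf1, had a fold change in the same direction. It had 15.2, 7.41 and 10.8 CPM in the Cx3cr1-Rheb1 Δ/Δ tumours, against 61.6, 57.8 and 71.1 CPM in the Rheb1 fl/fl tumours. The log2 fold change was -2.51 (SE 0.48, adjusted p = 0.154 with edgeR's quasi-likelihood test and 0.000672 with its likelihood ratio test), again with no overlap. Within a library, the log2 ratio of Irf1 to Irf2 was 2.21, 3.38 and 2.41 in Δ/Δ tumours and 2.06, 1.82 and 2.07 in fl/fl tumours. It was higher in all 3 Δ/Δ tumours, by 0.68 (two-sided exact permutation p = 0.1, the lowest value possible with 3 tumours a group), but replicates 26 and 37 lay close to the fl/fl values.

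Irf9 (ENSMUSG00000002325; chromosome 14, 55603571 to 55610030, plus strand), the DNA-binding part of ISGF3, had 39.0, 29.1 and 58.4 CPM in the Cx3cr1-Rheb1 Δ/Δ tumours, against 81.7, 116 and 145 CPM in the Rheb1 fl/fl tumours. The log2 fold change was -1.44 (SE 0.39, adjusted p = 0.223 in edgeR's quasi-likelihood test and 0.0433 in its likelihood ratio test). The groups did not overlap, though the highest Δ/Δ tumour and the lowest fl/fl tumour were closer than for Irf1, Irf2 or Irf8. In the deposited TPM values they overlapped, at 16.3, 7.46 and 10.9 TPM in the Δ/Δ tumours, against 30.9, 17.4 and 1.69 TPM in the fl/fl tumours. On log2(TPM + 1), limma gave a change of 0.05 for Irf9 (adjusted p = 0.99), so that its direction also depended on the table used. With each tumour left out in turn, the likelihood ratio test called Irf9 in 2 of 6 runs (adjusted p 0.00887 to 0.242), but Irf1, Irf2 and Irf8 in 6 of 6. Without the fl/fl replicate 35 that stood apart, the fold change was -1.86 for Irf1, -2.56 for Irf2, -2.77 for Irf8 and -1.66 for Irf9, and the likelihood ratio test again called 4 members. The share of all genes called in these runs was not computed.

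Irf5 (ENSMUSG00000029771; chromosome 6, 29526625 to 29541871, plus strand) was at low levels in bulk tumours. It had 3.45, 7.73 and 1.88 CPM in the Cx3cr1-Rheb1 Δ/Δ tumours, against 21.96, 10.2 and 31.3 CPM in the Rheb1 fl/fl tumours. The log2 fold change of -2.28 (SE 0.90) was not called by either edgeR test (adjusted p = 0.472 and 0.239). The groups did not overlap in counts, but the deposited TPM values ran the other way: 44.6, 35.5 and 36.5 TPM in the Δ/Δ tumours, against 18.3, 0 and 42.5 TPM in the fl/fl tumours. On log2(TPM + 1), limma gave a change of 2.07 (adjusted p = 0.642), so that the direction of Irf5 in bulk tumours depended on the table used.

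The virus-activated factors had the negative fold changes of smallest size. Irf3 (ENSMUSG00000003184; chromosome 7, 44997648 to 45002848, plus strand) had 23.7, 31.5 and 44.4 CPM in the Cx3cr1-Rheb1 Δ/Δ tumours, against 72.6, 56.8 and 53.7 CPM in the Rheb1 fl/fl tumours. These groups did not overlap, with a log2 fold change of -0.88 (SE 0.41, adjusted p = 0.569, edgeR's quasi-likelihood test). Irf7 (ENSMUSG00000025498; chromosome 7, 141262706 to 141266481, minus strand), itself an interferon-stimulated gene, had 64.3, 67.6 and 129 CPM in the Δ/Δ tumours, against 108, 109 and 111 CPM in the fl/fl tumours. The fl/fl tumours were almost equal, and replicate 37 of Δ/Δ was above all of them, so the groups overlapped. The log2 fold change of Irf7 was -0.33 (SE 0.35, adjusted p = 0.842, quasi-likelihood test of edgeR).

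Irf4 (ENSMUSG00000021356; chromosome 13, 30749226 to 30766976, plus strand), which acts in lymphocytes and in alternatively activated macrophages, was near the floor in most bulk tumours. It had 14.3, 0.0639 and 0.314 CPM in the Cx3cr1-Rheb1 Δ/Δ tumours, against 1.11, 4.09 and 0.811 CPM in the Rheb1 fl/fl tumours. The positive log2 fold change of 1.28 (SE 1.78) rested on replicate 26, without which it was -3.35.

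Markers shared by microglia, macrophages and other myeloid cells had fold changes in the same direction as these members in bulk tumours. The summed level of the 20 genes of that list was 928 to 2038 CPM in the Cx3cr1-Rheb1 Δ/Δ tumours and 3412 to 5867 CPM in the Rheb1 fl/fl tumours, and no marker was at 0 in a whole group. All 20 had negative fold changes (median -1.61), 16 of them at an unadjusted p under 0.05 (background 5.19% lower). Csf1r, the receptor that microglia need to survive, was at -1.58, Aif1, which encodes Iba1, at -2.29 and the integrin gene Itgam at -3.35. Among 12 homeostatic microglial markers, 11 were negative (median -1.88), but their summed levels overlapped, at 937 to 1526 CPM in Δ/Δ and 1185 to 1586 CPM in fl/fl tumours. The summed level of 14 T and NK cell markers was 10.6 to 39.7 CPM in Δ/Δ and 52.8 to 175 CPM in fl/fl tumours, with Cd2 and Ncr1 at 0 in all Δ/Δ tumours. The part of these cell contents in the values of the members was not tested beyond the ratios that follow. In bulk tumours, fewer cells of a type and less RNA per cell cannot be told apart. By flow cytometry, the study reported more CD8 and CD4 T cells, more bone marrow-derived macrophages and fewer TAM-MG in Cx3cr1-Rheb1 Δ/Δ tumours. Staining of tissue in that study also showed more CD8 and CD4 T cells. The study further used CIBERSORT, which estimates relative cell fractions from expression, on the TPM of 3 bulk tumours of each genotype. Its fractions of CD8 T cells, CD4 T cells and monocytes were higher in Δ/Δ tumours. The summed level of 10 monocyte and macrophage markers was 58.2 to 132 CPM in Δ/Δ and 173 to 542 CPM in fl/fl tumours. Of their fold changes, 9 of 10 were negative (median -2.54). The T and NK cell markers and the monocyte and macrophage markers here thus ran the other way from the study's reports on those cells. The reason was not tested.

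To set each member beside the myeloid content of its own library, log2 ratios of a member to the mean of 19 myeloid markers (the list without Spi1) were compared. Of 10 ratios compared in bulk tumours, 4 reached the smallest exact p of 0.1 (adjusted over the 10 ratios, 0.25). The ratio of Irf7 was 1.85, 1.12 and 1.42 in Cx3cr1-Rheb1 Δ/Δ tumours and 0.08, 0.13 and -0.55 in Rheb1 fl/fl tumours, a difference of 1.58 (exact p = 0.1). That of Irf3 was 0.43, 0.03 and -0.10 in Δ/Δ and -0.48, -0.81 and -1.59 in fl/fl tumours, a difference of 1.08 (exact p = 0.1). Relative to these markers, both virus-activated factors were thus higher in every Δ/Δ tumour than in any fl/fl tumour. The marker list itself was lower in Δ/Δ tumours (median log2 fold change -1.61), and Irf7 and Irf3 had negative fold changes (-0.33 and -0.88). A gene with no change would thus have a higher ratio as well. The share of all genes with such a ratio was not computed. The ratio of Irf1 differed by 0.15 (exact p = 0.8) with overlapping groups and changed sign to -0.23 without replicate 26. The ratios of Irf2, Irf5 and Irf9 differed by -0.53, -0.23 and 0.54 (exact permutation p = 0.4, 0.9 and 0.2). The ratio of Irf8 was -2.60, -1.35 and -2.05 in Δ/Δ tumours and -0.24, -0.87 and -1.46 in fl/fl tumours, lower by 1.14 on average but overlapping (exact p = 0.2). Against Spi1 alone, the gene of its partner PU.1, the log2 ratio of Irf8 was 0.03, 0.00 and 0.32 in Δ/Δ tumours and 3.20, 2.79 and 1.13 in fl/fl tumours, a difference of -2.26 (exact p = 0.1).

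**Figure D2:**
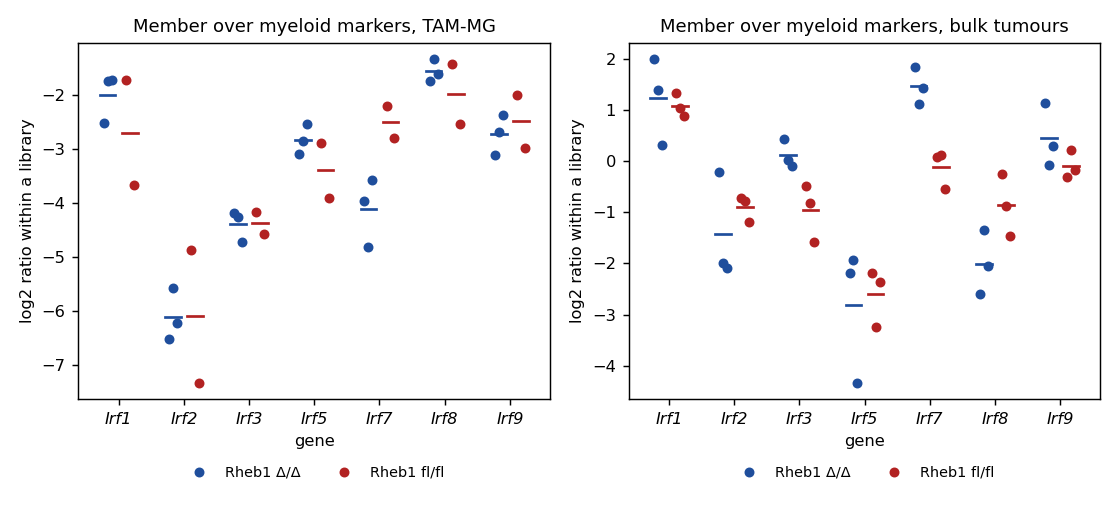
Within-library log2 ratio of each member to the mean of 19 shared myeloid markers, in TAM-MG on the left (3 Cx3cr1-Rheb1 Δ/Δ, 2 Rheb1 fl/fl) and in bulk tumours on the right (3 of each), Δ/Δ left of fl/fl, 1 point a library, with means as lines. The ratio of Irf7 was lower in all Δ/Δ TAM-MG by 1.63 on average and higher in all Δ/Δ tumours by 1.58. The marker list had a median log2 fold change of 0.04 in TAM-MG and -1.61 in tumours. Irf7 itself was at -0.33 in tumours, so its higher ratio there is not a higher level. Irf4, with libraries at 0 counts, is not drawn.

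In TAM-MG the pattern was another one. Of the 8 members, 4 had negative and 4 positive fold changes, with a median of -0.10 beside 0.08 over all 14872 genes tested, of which 46.5% were negative. The quasi-likelihood test of edgeR called none of the 8 and no gene at all (0% lower, 0% higher), and 1 member, Irf7, was lower at an unadjusted p under 0.05 (background 2.3% lower). The likelihood ratio test and DESeq2 each called 1 member, Irf7, lower (likelihood ratio test, background 0.471% of genes lower, and DESeq2, 90 of 14872 genes lower). Groups did not overlap for 3 members, of which Irf7 was lower (background 11.5%) and Irf5 and Irf8 were higher (background 14.6%).

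**Figure D3:**
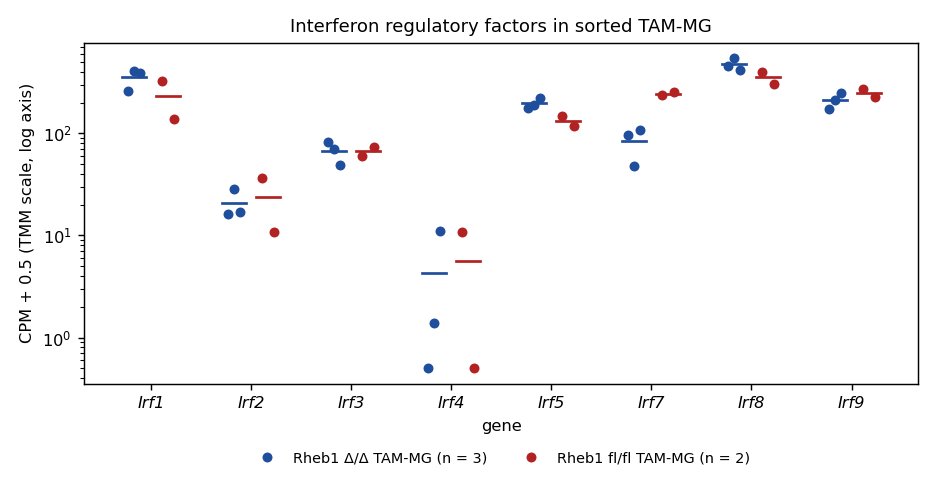
Level of the 8 interferon regulatory factors in each TAM-MG library, as CPM + 0.5 on a log axis, with 3 Cx3cr1-Rheb1 Δ/Δ libraries left of 2 Rheb1 fl/fl libraries for each gene and the mean as a line. Irf7 was lower in all 3 Δ/Δ libraries (47.8 to 107 CPM) than in both fl/fl libraries (234 and 253 CPM), and Irf4 had libraries with 0 counts in both genotypes.

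Irf7 had 95.3, 47.8 and 107 CPM in Cx3cr1-Rheb1 Δ/Δ TAM-MG (replicates 54, 63 and 65), against 234 and 253 CPM in Rheb1 fl/fl TAM-MG (replicates 74 and 78). The highest Δ/Δ library was well below both fl/fl libraries, and replicate 63 was the lowest. The log2 fold change was -1.55 (SE 0.39, adjusted p = 0.502 in edgeR's quasi-likelihood test and 0.043 in its likelihood ratio test). With each library left out in turn, the likelihood ratio test called it in 1 of 5 runs (adjusted p 0.0416 to 0.148), while the fold change stayed between -1.77 and -1.27. The share of all genes called in these runs was not computed. Relative to the 19 myeloid markers the ratio of Irf7 was also lower in every Δ/Δ library, at -3.97, -4.82 and -3.58, against -2.20 and -2.79 in fl/fl libraries (difference -1.63, exact permutation p = 0.1, the lowest value possible with 3 and 2 libraries, and 0.5 adjusted over 10 ratios).

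Irf8 and Irf5, the members tied to myeloid cells, had higher means in the Δ/Δ libraries. Irf8 had 451, 543 and 420 CPM in Cx3cr1-Rheb1 Δ/Δ TAM-MG, against 399 and 304 CPM in Rheb1 fl/fl TAM-MG. The lowest Δ/Δ library was above the higher fl/fl library by little, and the log2 fold change was 0.42 (SE 0.27, adjusted p = 0.743, edgeR's quasi-likelihood test). Irf5 had 176, 188 and 221 CPM in Δ/Δ libraries, against 146 and 116 CPM in fl/fl libraries, with a log2 fold change of 0.58 (SE 0.26, adjusted p = 0.552, same test of edgeR). The groups of both genes were apart, but neither change passed any test across genes. When libraries were scaled to the same mean log2 CPM, the median over all genes moved to -0.34 from 0.08 and the change of Irf8 to -0.02, so its sign depended on the scaling.

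Irf1 had 261, 409 and 392 CPM in Cx3cr1-Rheb1 Δ/Δ TAM-MG, against 327 and 137 CPM in Rheb1 fl/fl TAM-MG. The fl/fl libraries were far apart and 1 of them lay among the Δ/Δ libraries, so the log2 fold change of 0.61 (SE 0.44, adjusted p = 0.801, edgeR's quasi-likelihood test) is within the spread. The fold change of Irf1 was 0.13 without replicate 78 and 1.39 without replicate 74. Irf2, at 15.7, 27.9 and 16.5 CPM in Δ/Δ libraries and 36.2 and 10.3 CPM in fl/fl libraries, was split the same way between the fl/fl replicates (log2 fold change -0.22, SE 0.72). Its sign turned without replicate 74 (0.97) and on log2(TPM + 1) (0.70). The log2 ratio of Irf1 to Irf2 was 4.01, 3.85 and 4.53 in Δ/Δ libraries and 3.16 and 3.67 in fl/fl libraries. It was higher in all 3 Δ/Δ libraries by 0.72 (exact permutation p = 0.1), but from the TPM values the difference was -0.01 (exact p = 1).

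Irf3 and Irf9 overlapped between the genotypes. Irf3 had 82.2, 70.2 and 48.1 CPM in Cx3cr1-Rheb1 Δ/Δ TAM-MG, against 59.2 and 73.1 CPM in Rheb1 fl/fl TAM-MG, and the log2 fold change was 0.01 (SE 0.35). Irf9 had 174, 213 and 249 CPM in Δ/Δ libraries, against 271 and 224 CPM in fl/fl libraries, and the log2 fold change was -0.22 (SE 0.27). Both fl/fl values of Irf3 fell within the range of the Δ/Δ values, and the same held for 1 of the fl/fl values of Irf9.

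Irf4 was detected in part of the TAM-MG libraries only. It had 0, 0.883 and 10.5 CPM in Cx3cr1-Rheb1 Δ/Δ TAM-MG (0, 23 and 257 counts), against 10.2 and 0 CPM in Rheb1 fl/fl TAM-MG (328 and 0 counts). A count of 0 allows up to 0.134 CPM in replicate 54 and 0.155 CPM in replicate 78, taking 3 counts as the limit and covering counting error only. Each genotype thus held a library at 0 and a library near 10 CPM, and no fold change can be read from it.

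**Figure D4:**
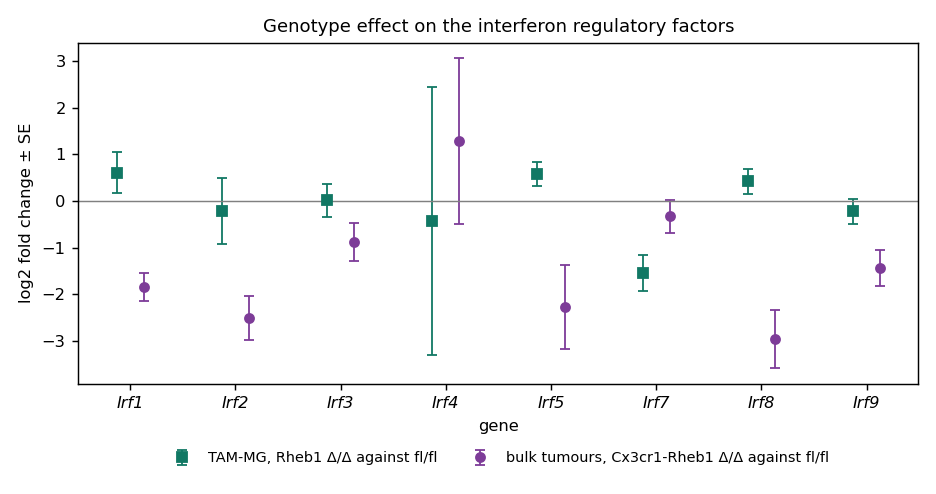
Log2 fold change of Cx3cr1-Rheb1 Δ/Δ over Rheb1 fl/fl with its standard error for each member, in TAM-MG (squares, 3 against 2 libraries) and in bulk tumours (circles, 3 against 3). Irf1, Irf2, Irf5 and Irf8 lay between -0.22 and 0.61 in TAM-MG and between -2.97 and -1.84 in bulk tumours, while Irf7 was at -1.55 in TAM-MG and at -0.33 in bulk tumours.

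Whether the genotype effect differed between the experiments was tested with an interaction term in the fit of 11 libraries. The difference (TAM-MG minus bulk) was 3.43 for Irf8 (SE 0.73, adjusted p = 0.112, quasi-likelihood test of edgeR), 2.50 for Irf1 (SE 0.54, adjusted p = 0.118) and 2.89 for Irf5 (SE 0.80, adjusted p = 0.226). None of the 8 was called, in a test that called 42 genes higher (0.197%) and 6 lower (0.0281%) of 21342. At an unadjusted p under 0.05, 5 members had a higher effect in TAM-MG (Irf1, Irf2, Irf5, Irf8 and Irf9), against 9.3% of all genes. The likelihood ratio test and DESeq2 called 3 each (Irf1, Irf5 and Irf8), with a background of 3.11% in the likelihood ratio test and 966 of 21342 genes higher in DESeq2. For Irf7 the difference ran the other way, at -1.18 (SE 0.56, adjusted p = 0.423, quasi-likelihood test of edgeR), and was not called by any of these tests.

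The family was ordered by level per length, on the deposited TPM and on CPM per kb of merged exon, the second scale added after the values were seen. In Cx3cr1-Rheb1 Δ/Δ TAM-MG the order by TPM was Irf8 (237 ± 41.5, SD, n = 3), Irf1 (180 ± 44.0), Irf5 (106 ± 9.96), Irf9 (96.8 ± 12.3), Irf3 (82.6 ± 12.2), Irf7 (58.8 ± 18.6), Irf2 (24.5 ± 11.3) and Irf4 (0.772 ± 1.18). Irf8 and Irf1 overlapped in range, as did the neighbours from Irf5 down to Irf7, while Irf1 lay above Irf5 in every library. In Rheb1 fl/fl TAM-MG it was Irf8 (168 ± 61.0 TPM, SD, n = 2), Irf7 (151 ± 11.6), Irf1 (123 ± 89.1), Irf9 (106 ± 30.5), Irf5 (73.8 ± 23.6), Irf3 (64.8 ± 8.25), Irf2 (19.9 ± 20.9) and Irf4 (1.22 ± 1.71). There each member from Irf8 to Irf5 overlapped the next, and Irf3 lay above Irf2 in both libraries. By CPM per kb the lead was another, with Irf1 (89.1), Irf5 (67.2) and Irf8 (66.8) first in Δ/Δ TAM-MG, with overlapping ranges, and Irf7 (64.5), Irf1 (58.4) and Irf8 (49.8) first in fl/fl TAM-MG. Irf7 thus had rank 6 in Δ/Δ TAM-MG and rank 2 in fl/fl TAM-MG by mean TPM, and ranks 5 and 1 by CPM per kb.

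In bulk tumours the order by CPM per kb was led by Irf7 in Cx3cr1-Rheb1 Δ/Δ (23.0 ± 9.59 CPM per kb, SD, n = 3) and by Irf1 in Rheb1 fl/fl (64.0 ± 11.99 CPM per kb). Irf1 followed Irf7 with overlapping ranges in Δ/Δ (17.9 ± 2.85), and was above every other member in all fl/fl tumours. Irf8 was at 1.199 ± 0.737 CPM per kb in Δ/Δ and 9.39 ± 2.41 in fl/fl tumours. The 2 scales gave unlike pictures for Irf2, Irf5 and Irf9 in bulk tumours. TPM per unit of CPM per kb ran from 13.3 to 56.2 for Irf5 in Δ/Δ tumours and from 0 to 3.94 in fl/fl tumours, but from 1.43 to 1.81 in all TAM-MG libraries. For Irf9 it was 0.0628 in fl/fl replicate 110, where the gene had 145 CPM but 1.69 TPM, and 0.807 to 2.25 in the other bulk tumours. For Irf2 it was 0.117 in Δ/Δ replicate 36, where the gene had 7.41 CPM but 0.117 TPM, 2.01 and 4.89 in the other Δ/Δ tumours and 1.35 to 1.65 in fl/fl tumours. Irf4 had no row in the bulk TPM table used here, which covers 12719 genes, against 34839 in the TAM-MG table.

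Set against bulk tumours on a common scale of 11 libraries, 6 of the 8 members were called higher in TAM-MG (background 20.5% of 21342 genes called higher), where the median over all genes was -0.89. Of all 11283 genes called, 38.7% were higher in TAM-MG, against 27.7% with scaling by library size only and 52.4% with libraries set to the same mean log2 CPM. Irf8 was at 529 to 692 CPM in Cx3cr1-Rheb1 Δ/Δ and 377 to 473 CPM in Rheb1 fl/fl TAM-MG, against 2.08 to 9.85 CPM in Δ/Δ and 45.4 to 70.3 CPM in fl/fl tumours. The log2 difference averaged over the genotypes was 4.67 (SE 0.39, adjusted p = 7.26e-06, edgeR's quasi-likelihood test). Irf5 came next at 4.63 (SE 0.43), followed by Irf9 at 2.29 (SE 0.26), Irf1 at 1.66 (SE 0.26), Irf3 at 1.14 (SE 0.28) and Irf7 at 1.12 (SE 0.28). All TAM-MG libraries were above all tumours for Irf3, Irf5, Irf8 and Irf9 (4 of 8, background 14.6%), while Irf1 and Irf7 overlapped. The call of Irf3 was lost without fl/fl TAM-MG replicate 78 (adjusted p = 0.0541, same test of edgeR), and those of Irf3 and Irf7 when only library size was used for scaling. On log2(TPM + 1), limma called Irf8 (3.88) and Irf9 (2.70) only, so that the calls of Irf5 (1.85, adjusted p = 0.1), Irf1 (0.72, adjusted p = 0.12), Irf3 and Irf7 were lost. Irf5 averaged 106 and 73.8 TPM in Δ/Δ and fl/fl TAM-MG, against 38.8 and 20.3 TPM in Δ/Δ and fl/fl tumours, a smaller gap than in counts. Irf2 (0.27, SE 0.43) and Irf4 (1.04, SE 1.74) were not called.

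The gap was also taken within each genotype. Between Δ/Δ libraries alone, Irf1 differed by 2.91 (SE 0.37), Irf8 by 6.39 (SE 0.59) and Irf5 by 6.07 (SE 0.64), and 5 members were called higher (Irf1, Irf3, Irf5, Irf8 and Irf9; background 14.9%). The gap of Irf5 is one of counts, and the TPM values just given for it in Δ/Δ libraries lay much closer together. Between fl/fl libraries alone, Irf1 differed by 0.41 (SE 0.39, adjusted p = 0.424) and Irf2 by -0.91 (SE 0.66, adjusted p = 0.29, edgeR's quasi-likelihood test), and 4 were called higher (Irf5, Irf7, Irf8 and Irf9; background 11.5%). The gap of Irf7 was 0.53 (SE 0.38, not called) in Δ/Δ and 1.71 (SE 0.42, called) in fl/fl libraries. The test of these differences between genotypes is the interaction given before, in which no member was called by the quasi-likelihood test.

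Target genes of the members were followed in lists that rest on textbook knowledge but were chosen with earlier results of these data known. The counts from these lists describe these libraries and are not independent support. For ISGF3, of which Irf9 is a part, 23 of 24 tested targets had negative fold changes in TAM-MG (median -1.20, beside 0.08 over all genes), 15 of them at an unadjusted p under 0.05 (background 2.3%). The likelihood ratio test called 9 of the 24 lower (background 0.471%), and the quasi-likelihood test called none. In 18 of the 24 the genotypes did not overlap and Cx3cr1-Rheb1 Δ/Δ was lower (background 11.5%). Isg15, a ubiquitin-like modifier, had a log2 fold change of -1.63 (SE 0.34), the exonuclease gene Isg20 of -0.93 (SE 0.45) and Ifit1, whose protein binds viral RNA, of -1.78 (SE 0.45). The study itself singled out Isg15 and Usp18, both on this list, in these libraries, so the list is not independent of them. Centred on its mean over the TAM-MG libraries, the median target was at -0.41, -0.38 and -0.52 (log2) in Δ/Δ libraries and at 0.78 and 0.76 in fl/fl libraries. The libraries of a genotype were close to each other in this median over 24 genes, which cannot be set against the spread of a single gene.

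The same list in bulk tumours had 22 of 24 negative (median -0.90, against 49.8% of all genes negative), 8 lower at an unadjusted p under 0.05 (background 5.19%) and 4 called lower by the likelihood ratio test (background 1.53%). The median target was at -0.46, -1.13 and 0.05 in Cx3cr1-Rheb1 Δ/Δ tumours and at 0.93, 0.27 and 0.50 in Rheb1 fl/fl tumours on the centred log2 scale. Replicate 37 of Δ/Δ, which also had the highest Irf7, lay closest to the fl/fl tumours.

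Genes that Irf1 activates with interferon-γ had negative fold changes in bulk tumours in 23 of 23 genes tested (median -1.19), 16 at an unadjusted p under 0.05 (background 5.19%) and 11 called by the likelihood ratio test (background 1.53%). The guanylate-binding protein genes Gbp2, Gbp3 and Gbp4 had log2 fold changes of -1.71 (SE 0.45), -1.18 (SE 0.39) and -3.30 (SE 0.39). Gbp4 had the smallest adjusted p of the experiment (0.0805, edgeR's quasi-likelihood test). The median target was at -0.95, -0.85 and -0.08 in Δ/Δ tumours and at 0.65, 0.66 and 0.73 in fl/fl tumours. In TAM-MG, 15 of 23 were negative (median -0.34). At an unadjusted p under 0.05, 3 were lower (background 2.3%) and 1 higher (background 5.47%). The median target was at -0.16, 0.04 and 0.02 in Δ/Δ and at 0.15 and 0.33 in fl/fl TAM-MG. Gbp2 was at -0.50 (SE 0.32), Gbp3 at -0.81 (SE 0.26) and Gbp4 at -0.44 (SE 0.80).

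**Figure D5:**
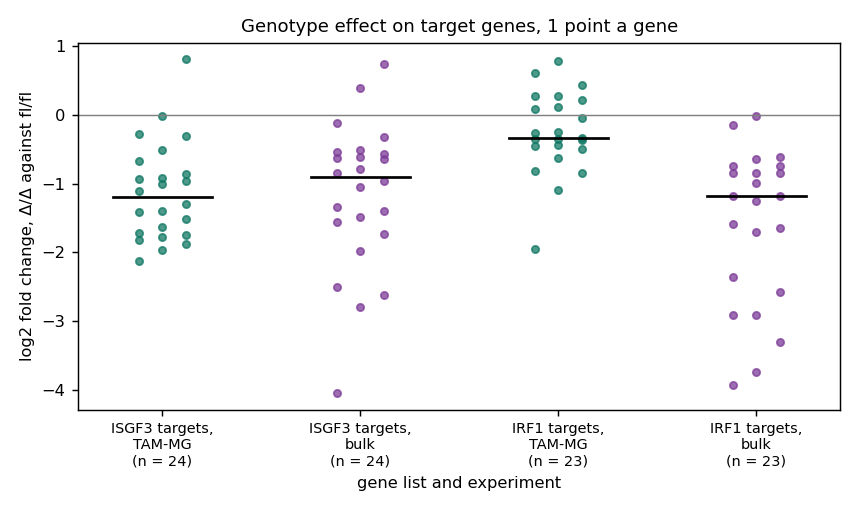
Log2 fold change of Δ/Δ over fl/fl for each tested gene of the lists of ISGF3 targets and Irf1 targets, in TAM-MG and in bulk tumours, 1 point a gene with the median as a line. ISGF3 targets were negative in 23 of 24 genes in TAM-MG and 22 of 24 in bulk tumours, and Irf1 targets in 15 of 23 genes in TAM-MG and 23 of 23 in bulk tumours.

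The steps that act on the members were followed as well. Their signs stand beside 46.5% of all genes negative in TAM-MG and 49.8% in bulk tumours, and several lie near these shares. Of the sensors, adaptors and kinases that activate Irf3, Irf5 and Irf7, 14 of 22 had positive fold changes in TAM-MG (median 0.31), with Tbk1, the kinase of Irf3 and Irf7, at -0.66 (SE 0.41), Ikbke at 0.81 (SE 2.47) and the adaptor gene Mavs at 0.96 (SE 0.58). In bulk tumours 12 of 20 were negative (median -0.50), with Tbk1 at 0.42 (SE 0.34), Ikbke at -0.51 (SE 1.24) and Mavs at -1.94 (SE 0.67). Of the interferon receptors and JAK-STAT genes, 10 of 14 were positive in TAM-MG (median 0.22), with the receptor genes Ifnar1 at 1.06 (SE 0.33), Ifnar2 at 0.51 (SE 0.37) and Ifngr1 at 0.12 (SE 0.33). In bulk tumours 12 of 14 were negative (median -0.65), with Ifnar1 at -0.92 (SE 0.62), Ifnar2 at -0.57 (SE 0.66) and Ifngr1 at -0.56 (SE 0.52). Interferon genes themselves were hardly counted, with 0 of 13 tested in bulk tumours and 2 (Ifnb1 and Ifna2) in TAM-MG, neither at an unadjusted p under 0.05.

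Partners of the members had mostly positive fold changes in TAM-MG and mostly negative ones in bulk tumours. Over all genes tested, 46.5% were negative in TAM-MG and 49.8% in bulk tumours. In TAM-MG all 13 tested partner genes had positive fold changes (median 1.06), 3 of them at an unadjusted p under 0.05 (background 5.47% higher) and none called by either edgeR test (1.18% of genes called higher by the likelihood ratio test). Spi1, which encodes PU.1, was at 0.66 (SE 0.42), Batf at 0.38 (SE 0.77) and Batf2 at 0.27 (SE 0.73). In bulk tumours 9 of 13 were negative (median -0.60), with Spi1 at -0.89 (SE 0.96), Batf at -1.27 (SE 2.00) and Batf2 at -2.99 (SE 0.78). Of myeloid genes that Irf8 controls, 7 of 12 were negative in TAM-MG (median -0.23), among them Cybb, a subunit of the phagocyte oxidase, at -1.65 (SE 0.27), with Ncf4 of the same complex at -0.31 (SE 0.32). In bulk tumours 7 of 10 were negative (median -0.22), with Cybb at -1.46 (SE 0.59) and Ncf4 at -3.56 (SE 1.54). Of the cytokine genes linked to Irf5, 3 of 4 tested were negative in TAM-MG and 1 of 2 in bulk tumours. Of the genes linked to Irf4 in macrophages, 6 of 8 were positive in TAM-MG and 2 of 8 in bulk tumours.

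Cell type markers were also followed in TAM-MG. All 12 homeostatic microglial markers had positive fold changes (median 0.47), 2 of them at an unadjusted p under 0.05 (background 5.47% higher). Their summed levels were 25358 to 37366 CPM in Cx3cr1-Rheb1 Δ/Δ and 21579 to 27035 CPM in Rheb1 fl/fl TAM-MG. The summed level of 10 monocyte and macrophage markers was 114 to 141 CPM in Cx3cr1-Rheb1 Δ/Δ and 201 to 327 CPM in Rheb1 fl/fl TAM-MG. Of their fold changes, 9 of 10 were negative (median -0.86). At an unadjusted p under 0.05, 1 was lower (background 2.3%), and no marker was at 0 in a whole group. The part of these differences in the levels of Irf5, Irf7, Irf8 and the ISGF3 targets was not tested. The shared myeloid markers summed to 51275 to 62207 CPM in Δ/Δ and 45451 to 65944 CPM in fl/fl TAM-MG, and T and NK cell markers to 13.1 to 29.1 CPM in Δ/Δ and 23.0 to 26.3 CPM in fl/fl TAM-MG, with 4 of those 14 at 0 in all Δ/Δ libraries and 10 in both fl/fl libraries, Cd4 and Ncr1 in all of them.

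Genes with the profile closest to a member were found as those with the smallest root mean square distance between log2 values centred on the mean of the experiment. Over 6 bulk libraries and 11166 genes, those closest to Irf8 were the leukocyte integrin gene Itgal (distance 0.25), Zbtb26 (0.32) and Cyth4 (0.38), and those closest to Irf1 were Senp7 (0.18), Kitl (0.21) and Gm43169 (0.24). Closest to Irf7 in bulk tumours were Hspd1, a mitochondrial chaperonin gene (0.08), Ahsa1 (0.08) and Slc39a6 (0.10). Over 5 TAM-MG libraries and 8756 genes, those closest to Irf7 were Smim13 (0.13) and Kif15 (0.14), neither of them on the list of ISGF3 targets. Those closest to Irf8 were Coq10b (0.06), Osbpl11 (0.07) and Nfe2l2 (0.07), and those closest to Irf1 were Frmd4b (0.05), Dcaf12 (0.08) and Klk8 (0.09). No shared function is read from these distances.

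The counts of some members may take in reads of neighbours. On the annotation used here, Irf1, Irf2, Irf3, Irf5 and Irf7 overlap genes on the other strand (Gm17334 for Irf1, Bcl2l12 for Irf3, Tnpo3 for Irf5 and Phrf1 for Irf7), and Irf8 and Irf9 overlap Gm20388 and Rnf31 on the same strand. Whether the counting used strand is not given in the sources used here, so reads of pairs on opposite strands cannot be told apart. For the pairs on the same strand, strand could not separate the reads in any case.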

How the data were processed

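RNA-seq was analysed from 11 libraries, 5 of TAM-MG and 6 of bulk tumours. The sources used here do not say that each library came from a separate mouse; if some did not, p-values measure only the spread between libraries, which may be technical. The authors deposited raw counts per gene from STAR and TPM from Salmon, on GRCm38 with Ensembl release 90; tool versions are not given in the sources used here. The TPM table that the authors deposited for TAM-MG closes with a sum over genes that bears no name; it was left out. The bulk TPM cover part of the genes. Of the 50686 genes, 99.4% had a symbol.

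Counts were filtered with filterByExpr (minimum count 10, total 15), scaled by TMM and tested with edgeR 4.0.16 in R 4.3.3 (glmQLFit, glmQLFTest) for each experiment alone. TAM-MG against bulk and the interaction came from 1 fit of 4 groups. Standard errors were derived from the F statistic. Ratios used log2(CPM + 0.5) with exact permutation tests over libraries, 10 in each experiment; at a smallest p of 0.1 none can pass 0.05. Alternatives were edgeR's likelihood ratio test, DESeq2 1.42.0, other scalings and filters, limma 3.58.1 on log2(TPM + 1) with a filter of 1 TPM in 2 libraries, and leaving out each library. Coordinates come from GENCODE vM21 on GRCm38. Named genes are the 8 members, Rheb, the first 3 tested genes of each list of factors, targets or myeloid markers, and the 3 genes closest in profile to Irf1, Irf7 and Irf8 (mean of at least 10 CPM). Some genes that this rule names are not reported here. The members and lists were chosen with earlier results of these data known. Library depth, given in the report, limits precision for low genes such as Irf4.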

Additional observations from a re-analysis of the deposited data

Results flagged for a closer look

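The genotype effect on Irf8 had opposite signs in the experiments, with every Rheb1 Δ/Δ library above every Rheb1 fl/fl library in TAM-MG and below in bulk tumours. In TAM-MG the change of Irf8 was 0.42 (adjusted p = 0.743, edgeR's quasi-likelihood test) and turned to -0.02 with libraries scaled to the same mean log2 CPM, so its sign there depended on the scaling. The difference of the effects, TAM-MG minus bulk, was 3.43 on the log2 scale (SE 0.73, adjusted p = 0.112, edgeR's quasi-likelihood test), and it was 3.06 to 3.74 with each library left out in turn. Irf5 showed the same pattern in counts, with a difference of 2.89 (SE 0.80, adjusted p = 0.226, same test of edgeR), which was 2.45 to 3.60 with libraries left out. Neither difference passed the quasi-likelihood test, while edgeR's likelihood ratio test gave adjusted p values of 0.00183 for Irf8 and 0.0267 for Irf5. The bulk direction of Irf5 was opposite in the TPM values.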

How the results depend on the processing

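No paired analysis was possible because the groups compared share no replicate numbers. Within each experiment the calls depended on the test and, in bulk tumours, on the filter as well, and the cause of the changes was not tested. In bulk tumours (0 genes and 0 members called), the likelihood ratio test called 383 genes and 4 members, DESeq2 474 and 4, no filter 102 and 3, a minimum of 10 counts in each library 62 and 3, the fit of 4 groups 18 genes, and limma 2 genes on log2(TPM + 1), with or without a filter, and 27 on log2(TPM + 0.1). In TAM-MG (0 and 0), the likelihood ratio test called 245 genes and 1 member, DESeq2 477 and 1, the fit of 4 groups 65 genes and limma on log2(TPM + 0.1) 40. TAM-MG against bulk (11283 genes, 6 members) gave 12909 genes with the likelihood ratio test and 12025 with DESeq2, each with 6 members, but 7066 genes within Δ/Δ, 5828 within fl/fl, 4571 when every library needed 10 counts or more, and 7277 genes and 2 members on TPM. The difference of genotype effects (48 genes, 0 members) gave 835 genes and 3 members with the likelihood ratio test, 1206 and 3 with DESeq2, 76 with no filter, 3 when every library needed 10 counts or more, 8 with RLE factors and 10 with the same mean log2 CPM, of which 70% were higher, against 87.5% of the 48.

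Signs turned for Irf2 in TAM-MG against bulk (-0.91 within fl/fl, -0.26 with library size only) and, with the same mean log2 CPM, for Irf3 and Irf8 in TAM-MG (-0.42 and -0.021). On TPM they turned for Irf5 (2.07, and 3.18 with a pseudocount of 0.1) and Irf9 (0.049 and 0.17) in bulk tumours and for Irf2 in TAM-MG (0.70 and 0.78), with equal values for no filter. Ratios from TPM turned in bulk tumours for Irf1 (-0.12) and Irf5 (4.19) to myeloid markers, and in TAM-MG for Irf1 to Irf2 (-0.012) and for Irf2 (0.67) and Irf3 (0.27) to myeloid markers.

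With each library left out, genes called ranged over 0 to 8 in bulk tumours (8 without Δ/Δ replicate 37) and 1 to 361 for the difference of effects (1 without bulk fl/fl replicate 35, 361 without TAM-MG fl/fl replicate 78), and members called by the likelihood ratio test over 3 to 4 in bulk tumours and 0 to 1 in TAM-MG. Signs turned for Irf4 in bulk tumours (-3.35 to 2.33), in TAM-MG against bulk (-4.03 to 3.22) and in the difference of effects (-4.67 to 8.19), for Irf2 in TAM-MG against bulk (-0.44 to 0.43), and in TAM-MG for Irf2 (-0.84 to 0.97), Irf3 (-0.16 to 0.20) and Irf4 (-3.52 to 9.46). Ratios to myeloid markers that turned were Irf1 (-0.23 to 0.61), Irf4 (-0.041 to 2.76) and Irf5 (-0.67 to 0.53) in bulk tumours, and Irf1 (-0.27 to 1.69), Irf2 (-1.24 to 1.23), Irf3 (-0.22 to 0.19), Irf4 (-2.81 to 2.33), Irf8 (-0.13 to 0.97) and Irf9 (-0.73 to 0.26) in TAM-MG, as did Irf8 to Spi1 there (-0.49 to 0.23). Over all settings, 22 member fold changes newly passed the threshold, 10 no longer did and 27 turned sign. The others kept their sign and their side of the threshold. Of the ratios, which no setting could bring past 0.05, 20 turned sign. Counts near 0 limit what can be read of Irf4, and 2 fl/fl libraries limit every TAM-MG comparison.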
